A study of Caenorhabditis elegans with 12 samples.

Results

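Mature miRNAs were counted in whole L4 larvae of 3 Caenorhabditis elegans strains that carry a mutation in mbl-1 and in the wild-type strain N2, to find which miRNAs the mutant lines change in common. All 9 mutant libraries were set against all 3 wild-type libraries, with each mutant line given the same weight. The mutant strains are mbl-1(tm1563) and a pair that carry the alleles mbl-1(syb4345) or mbl-1(syb4318), and each of the 4 strains gave 3 libraries. Per the series' design text, 1 line of that pair makes a short MBL-1 protein and the other a long one. The count columns of these lines carry only the codes ME and SH, which no label ties to an allele or to an isoform length, so these codes serve as their names here (ME line, SH line). The tm1563 columns bear the name of the gene with no line code and were assigned to that strain by inference. Bleached embryos of every strain gave synchronous L1 larvae, which were fed OP50 bacteria and kept at 20 °C until L4. Of the 471 features in the table, 370 have a miRBase name and are described here, and 235 of these passed the filter on low counts. The labels call the libraries biological replicates, and each mutation was represented by 1 strain, so p-values measure the spread between libraries of these strains.

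MBL-1 is the worm member of the Muscleblind family, zinc-finger RNA-binding proteins that regulate alternative splicing in muscle and neurons. In mammals the family member MBNL1 also binds the precursor of miR-1, a muscle miRNA. A miRNA hairpin is cut by Drosha and Dicer into a duplex of a 5p and a 3p arm. Usually the more abundant arm is kept by an Argonaute protein as the guide and the other is degraded, so the level of the minor arm and that of the major arm can differ by orders of magnitude.

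Mutant libraries held 6946205 to 10764528 counts and wild-type libraries 8493518 to 12053039. Levels are given as CPM, the counts relative to the library total after scaling by TMM, a factor that aligns the bulk of features between libraries. A count of 3, taken as the detection floor, stood at 0.305 to 0.45 CPM in mutant libraries and 0.244 to 0.448 CPM in wild-type libraries, and this limit covers counting error only. Between 365 and 382 features had a count in each mutant library, against 326, 394 and 400 in the wild-type libraries 1, 2 and 3. Wild-type library 1 stood apart from the other two: its TMM factor was 0.788, and its 5 most abundant features took 68.66% of its counts.

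In the mean of the 3 mutant lines, 20 miRNAs changed against wild type, 9 higher and 11 lower (edgeR quasi-likelihood test, Benjamini-Hochberg adjusted p under 0.05). These are 8% of the 250 features tested, 3.6% higher and 4.4% lower, and the median log2 fold change over all features was 0.05. No predicted miRNA passed, although 61 features had an unadjusted p under 0.05, 58 of them with a miRBase name. The 9 that rose were miR-788-5p, miR-243-5p, miR-47-3p, miR-90-3p, miR-1830-5p, miR-243-3p, miR-53-5p, miR-230-3p and miR-1022-5p. The 11 that fell were miR-1829b-3p, miR-238-5p, miR-39-5p, miR-246-5p, miR-40-5p, miR-71-3p, miR-1817, miR-82-3p, miR-246-3p, miR-51-3p and miR-229-3p. The count depended on single libraries: it was 4, 7, 6, 8 and 0 without tm1563 library 1, tm1563 library 2 and wild-type libraries 1, 2 and 3. All 20 calls were thus lost without wild-type library 3, which left 44 features at an unadjusted p under 0.05. Scaling also moved the split, to 7 higher and 18 lower with RLE size factors and to 6 higher and 0 lower with library totals alone, whereas DESeq2 called 35 features.

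Without wild-type library 1 the 6 calls included 5 of the 20: miR-243-3p and miR-71-3p (edgeR adjusted p = 0.0162 for both), miR-246-5p (0.0264), and miR-90-3p and miR-40-5p (0.0450 for both). The other 15 kept their direction and missed the threshold. Their adjusted p was 0.0530 for miR-243-5p, miR-39-5p and miR-788-5p, 0.0573 for miR-229-3p, 0.0648 for miR-246-3p and 0.0767 for miR-1817, miR-1829b-3p and miR-51-3p. It was 0.0938 for miR-1830-5p, 0.105 for miR-238-5p, 0.109 for miR-47-3p, 0.114 for miR-53-5p, 0.128 for miR-230-3p, 0.142 for miR-1022-5p and 0.199 for miR-82-3p.

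**Figure D1:**
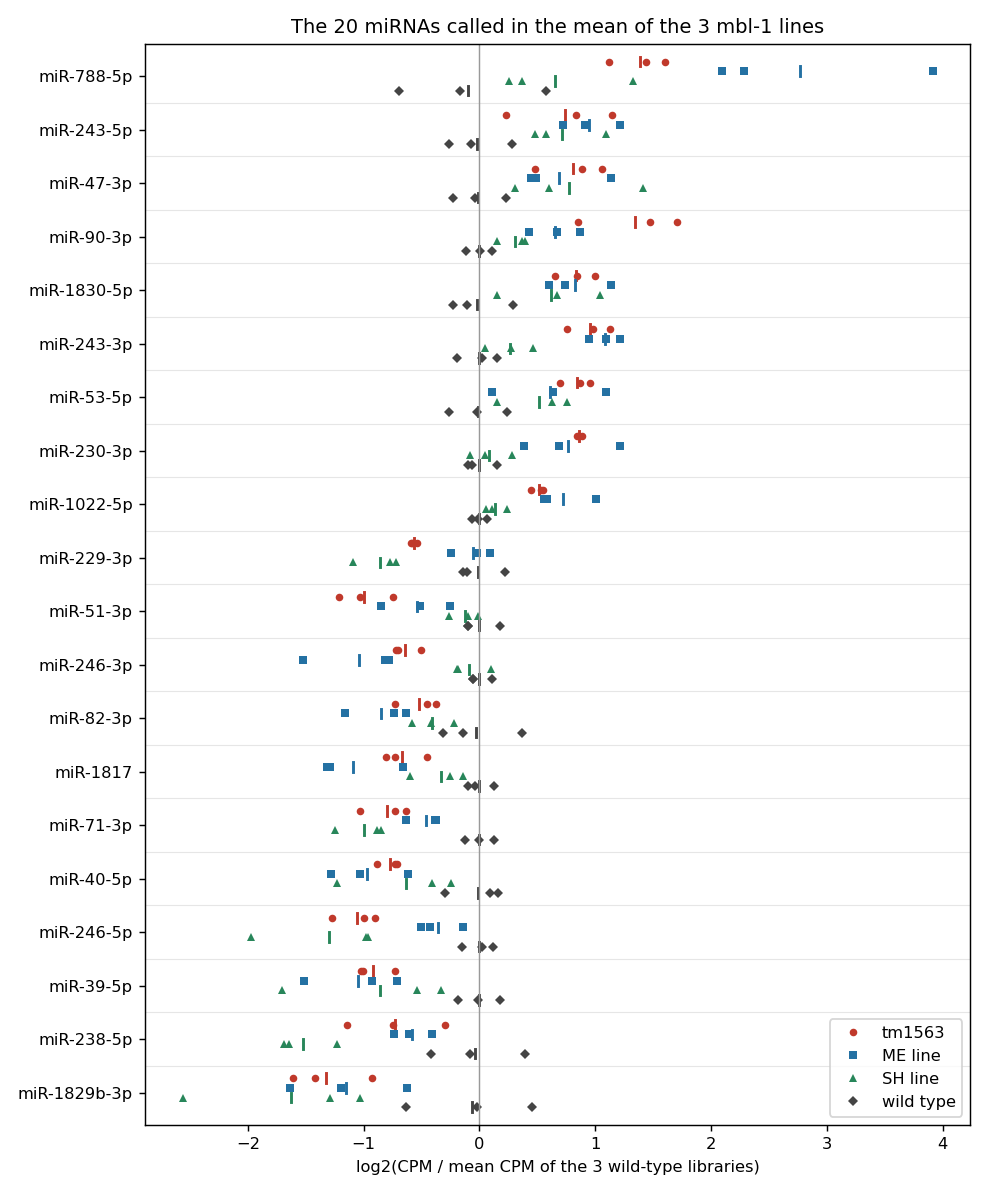
The 20 miRNAs called in the mean of the 3 mbl-1 lines. Each point is 1 library, placed by the log2 ratio of its CPM to the mean CPM of the 3 wild-type libraries, and the vertical ticks mark the mean of each line's 3 points. For miR-71-3p, miR-1817 and miR-39-5p every mutant point lies left of every wild-type point, and for miR-47-3p and miR-90-3p every mutant point lies right of them.

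A contrast among the mutant lines, in the same fit of all 12 libraries, asked whether the 3 lines differed from each other. It compared no mean with wild type, although the wild-type libraries enter the shared scaling, filter and spread. It called 44 features, 17.6% of those tested, and 9 of these were among the 20 above. The count was 24 without SH line library 1, 26 without tm1563 library 2 and without ME line library 1 or 3, and 29 without tm1563 library 3. The remaining 11 of the 20 did not pass it, which does not show that the lines acted alike. They were miR-243-5p, miR-47-3p, miR-1830-5p and miR-53-5p among the rises, and miR-82-3p, miR-1817, miR-71-3p, miR-40-5p, miR-39-5p, miR-238-5p and miR-1829b-3p among the falls. Log2 fold changes of the lines are given below side by side, and all of them share the 3 wild-type libraries.

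Of the 4 rises without a called difference among the lines, miR-47-3p was the most abundant. It lay between 8848 and 19140 CPM in the 9 mutant libraries, with a median of 10860, and stood at 7003, 8384 and 6135 CPM in the wild-type libraries. Every mutant library was above every wild-type library. The mean of the lines was 1.74-fold that of wild type, with a log2 fold change of 0.80 ± 0.23 (SE, adjusted p = 0.0430), and the lines stood at 0.83 (tm1563), 0.73 (ME line) and 0.85 (SH line), none of which passed on its own (adjusted p = 0.0622, 0.0734 and 0.135). The lowest mutant library, SH line library 3, lay close to the highest wild-type one.

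miR-53-5p belongs to the mir-51 family, broadly expressed miRNAs needed in the embryo. Its level was 312 to 620 CPM in the mutant libraries, with a median of 470, and 286, 343 and 242 CPM in wild type. The groups overlapped, since ME line library 3 and SH line library 1 lay below the highest wild-type library. It was higher by 0.68 ± 0.20 on the log2 scale (SE, adjusted p = 0.0430), with 0.85 in tm1563, 0.67 in the ME line and 0.53 in the SH line. Of the 6 mir-51 family guides tested, miR-53-5p was the single one called, and the family's median log2 fold change was 0.25. Some members of the family may share reads, so the values of single members are uncertain.

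A further pair of these rises were minor arms at low levels. miR-1830-5p, cut from a hairpin in an intron of paic-1, had 23.8 to 47.1 CPM in the mutant libraries and 19.9, 26.1 and 18.2 CPM in wild type. All mutant libraries except SH line library 1 exceeded the wild-type range. Its log2 fold change was 0.78 ± 0.21 (SE, adjusted p = 0.0416), and its major arm, miR-1830-3p, had a log2 fold change of 0.43 (adjusted p = 0.297). miR-243-5p is treated below with its partner arm.

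Of the 7 falls without a called difference among the lines, miR-71-3p had the smallest p. It is the minor arm of mir-71, whose major arm miR-71-5p promotes long life and stress resistance in worms. miR-71-3p stood at 71.2, 87.9 and 93.6 CPM in tm1563, at 112, 111 and 93.5 CPM in the ME line and at 78.6, 61.3 and 80.4 CPM in the SH line, against 133, 145 and 158 CPM in wild type. All 9 mutant libraries lay below all wild-type libraries. The log2 fold change was -0.74 ± 0.14 (SE, adjusted p = 0.00937), a level 1.68-fold higher in wild type. By line it was -0.79 in tm1563, -0.46 in the ME line and -0.99 in the SH line (adjusted p = 0.0138, 0.0808 and 0.00881). The major arm miR-71-5p was at 20445 to 31788 CPM in the mutant libraries, with a median of 22699, and at 17360, 27102 and 32360 CPM in wild type. Its mutant libraries all lay inside the wild-type range, and its log2 fold change was -0.06 (95% interval -0.44 to 0.32).

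miR-1817, of which a single arm is listed, also separated the groups fully. It had 56.7, 60.0 and 72.5 CPM in tm1563, 40.7, 62.7 and 39.9 CPM in the ME line and 83.3, 65.6 and 90.4 CPM in the SH line, against 108, 93.0 and 97.0 CPM in wild type. SH line library 3 came nearest to wild type. The fit gave a log2 fold change of -0.68 ± 0.16 (SE, adjusted p = 0.0289). It was -0.61 (adjusted p = 0.0767) without wild-type library 1. By line it was -0.66 in tm1563, -1.06 in the ME line and -0.32 in the SH line.

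miR-39-5p and miR-40-5p are minor arms of the mir-35 cluster on chromosome II, whose 3p arms act in oocytes and embryos. miR-39-5p had 3.54 to 9.21 CPM in the mutant libraries, with a median of 6.08, and 10.2, 11.5 and 13.1 CPM in wild type, so the groups did not overlap. Its log2 fold change was -0.89 ± 0.24 (SE, adjusted p = 0.0416), with -0.92 in tm1563, -1.01 in the ME line and -0.74 in the SH line. miR-40-5p had 9.29 to 19.0 CPM in the mutant libraries and 18.4, 25.2 and 24.1 CPM in wild type, with SH line library 3 just above the lowest wild-type library (log2 fold change -0.76 ± 0.20, SE, adjusted p = 0.0416). Of 6 minor 5p arms tested, from the cluster and from mir-42 of the same family, these 2 fell and none rose. That is 33.3% of a small set, against 8% of all features tested (4.4% lower). The median log2 fold change of the 6 was -0.52, with a range from -0.89 to 0.25, and 1 of the 6 differed among the lines. mir-42 lies apart from the cluster on chromosome II (II:11889811-11889905, + strand). Of the 8 mir-35 family guides, miR-35-3p to miR-42-3p, none was called by edgeR, 2 had an unadjusted p under 0.05, and their median was 0.18. The guides summed to between 1431 and 1957 CPM in mutant libraries, against 1379 to 1594 CPM in wild type. Members of the cluster may share reads.

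miR-82-3p, a mir-58 (bantam-related) family guide, was the most abundant miRNA called. It lay between 31711 and 61014 CPM in the mutant libraries, with a median of 47558, and at 91799, 57095 and 64201 CPM in wild type. The groups overlapped through SH line library 2, and wild-type library 1 was the highest of the 12. The log2 fold change was -0.58 ± 0.16 (SE, adjusted p = 0.0430). It was -0.36 (adjusted p = 0.199) without wild-type library 1, and -0.31 (adjusted p = 0.200) without that library and ME line library 1. The family's other tested guides, miR-58a-3p, miR-80-3p and miR-81-3p, had log2 fold changes of -0.18, -0.08 and -0.38 and were not called. Reads may be split between guides of this family that are alike in sequence, which was not checked here.

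The last 2 of these falls were at low levels. miR-1829b-3p had 2.21 to 8.44 CPM in the mutant libraries, with a median of 5.35, and 17.9, 8.42 and 12.8 CPM in wild type. ME line library 1 reached the lowest wild-type library and the other mutant libraries lay below it. Its log2 fold change was -1.27 ± 0.28 (SE, adjusted p = 0.0187), the largest fall called. Without wild-type library 1, the highest of the 12, it was -0.99 (adjusted p = 0.0767). By line it stood at -1.28 in tm1563, -1.08 in the ME line and -1.46 in the SH line. Copies of this miRNA may share its reads. miR-238-5p, the minor arm of a miRNA known to promote long life, had 2.86 to 7.50 CPM in the mutant libraries, with a median of 5.49, and 12.1, 6.89 and 8.70 CPM in wild type (log2 fold change -0.91 ± 0.22, SE, adjusted p = 0.0308). Without wild-type library 1, the highest of the 12, it was -0.69 (adjusted p = 0.105). Its groups overlapped through libraries of tm1563 and the ME line. It was lowest in the SH line, at -1.49, and stood at -0.68 in tm1563 and -0.56 in the ME line. The major arm miR-238-3p had a log2 fold change of 0.11 (adjusted p = 0.672).

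For the other 9 of the 20 the mean combined lines that differed from each other. miR-243-3p is known for being loaded into RDE-1, the Argonaute of the RNA interference pathway, and for triggering secondary small RNAs. It stood at 516, 467 and 400 CPM in tm1563, at 548, 455 and 503 CPM in the ME line and at 245, 325 and 285 CPM in the SH line, against 263, 206 and 240 CPM in wild type. The tm1563 and ME line libraries were all above wild type, while the SH line overlapped it. The log2 fold change of the mean was 0.77 ± 0.15 (SE, adjusted p = 0.00937), with 0.96 in tm1563, 1.09 in the ME line and 0.27 in the SH line (difference among the lines, adjusted p = 0.00897). Its minor arm miR-243-5p had 8.35 to 16.5 CPM in the mutant libraries and 8.67, 6.79 and 5.93 CPM in wild type, with 1 tm1563 library inside the wild-type range. This arm was higher by 0.84 ± 0.24 on the log2 scale (SE, adjusted p = 0.0430), and its line values of 0.79, 0.97 and 0.75 did not pass the test of a difference (adjusted p = 0.826).

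miR-90-3p was above wild type in every mutant library. It had 1088, 1968 and 1674 CPM in tm1563, 1098, 811 and 959 CPM in the ME line and 672, 778 and 792 CPM in the SH line, against 649, 604 and 556 CPM in wild type. The lines formed a graded order with tm1563 highest and the SH line nearest wild type. The log2 fold change of the mean was 0.79 ± 0.17 (SE, adjusted p = 0.0187), and 1.39, 0.66 and 0.31 in tm1563, the ME line and the SH line (difference among the lines, adjusted p = 0.00523).

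miR-788-5p had the largest mean rise and the widest spread. It stood at 224, 200 and 160 CPM in tm1563, at 1114, 315 and 359 CPM in the ME line and at 88.4, 185 and 95.2 CPM in the SH line, against 110, 65.7 and 45.7 CPM in wild type. ME line library 1 alone was far above the rest, and the SH line overlapped wild type. In the mean it was higher by 1.72 ± 0.45 on the log2 scale (SE, adjusted p = 0.0430), with 1.40 in tm1563, 3.02 in the ME line and 0.74 in the SH line. The major arm miR-788-3p had a log2 fold change of 0.15 (adjusted p = 0.673).

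miR-230-3p and miR-1022-5p rose in the mean with the SH line near wild type. miR-230-3p averaged 135 ± 1.82 CPM in tm1563, 130 ± 38.5 in the ME line and 79.2 ± 10.2 in the SH line, against 74.5 ± 7.14 in wild type (SD, n = 3 each). miR-1022-5p averaged 204 ± 7.65 CPM in tm1563, 238 ± 43.5 in the ME line and 157 ± 10.1 in the SH line, against 143 ± 6.44 in wild type (SD, n = 3 each). Their mean log2 fold changes were 0.58 and 0.46 (edgeR adjusted p = 0.0430 and 0.0495), while those of the SH line alone were 0.09 and 0.13. The 3 lines differed for both (adjusted p = 0.0229 and 0.0427).

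The falls of miR-51-3p and miR-246-3p were likewise smallest in the SH line. miR-51-3p, a minor arm, averaged 37.3 ± 6.10 CPM in tm1563, 51.6 ± 10.5 in the ME line and 67.9 ± 5.86 in the SH line, against 73.8 ± 8.37 in wild type (SD, n = 3 each). miR-246-3p, a guide that promotes long life and is made in the gonad, averaged 2928 ± 252 CPM in tm1563, 2274 ± 599 in the ME line and 4300 ± 511 in the SH line, against 4562 ± 296 in wild type (SD, n = 3 each). Their mean log2 fold changes were -0.54 and -0.58 (edgeR adjusted p = 0.0430 and 0.0416), and those of the SH line were -0.12 and -0.09. In whole worms fewer cells of a type and less RNA per cell cannot be told apart.

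For miR-246-5p and miR-229-3p the ME line was the one nearest wild type. miR-246-5p, the minor arm of mir-246, stood at 24.4, 31.5 and 29.6 CPM in tm1563, at 43.8, 41.5 and 53.3 CPM in the ME line and at 29.9, 15.1 and 30.3 CPM in the SH line, against 53.2, 59.7 and 64.0 CPM in wild type. Apart from ME line library 3, which matched the lowest wild-type library, every mutant library was below wild type. Its log2 fold change was -0.88 ± 0.19 (SE, adjusted p = 0.0187), with -1.05, -0.35 and -1.23 in tm1563, the ME line and the SH line. Thus the arms of mir-246 were lowest in different lines, miR-246-3p in the ME line and miR-246-5p in the SH line. miR-229-3p averaged 153 ± 3.18 CPM in tm1563, 219 ± 25.3 in the ME line and 126 ± 16.9 in the SH line, against 228 ± 33.1 in wild type (SD, n = 3 each), with a mean log2 fold change of -0.49 (edgeR adjusted p = 0.0430). Its major arm miR-229-5p and the clustered mir-64 family guides miR-64-5p, miR-65-5p and miR-66-5p were not called.

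**Figure D2:**
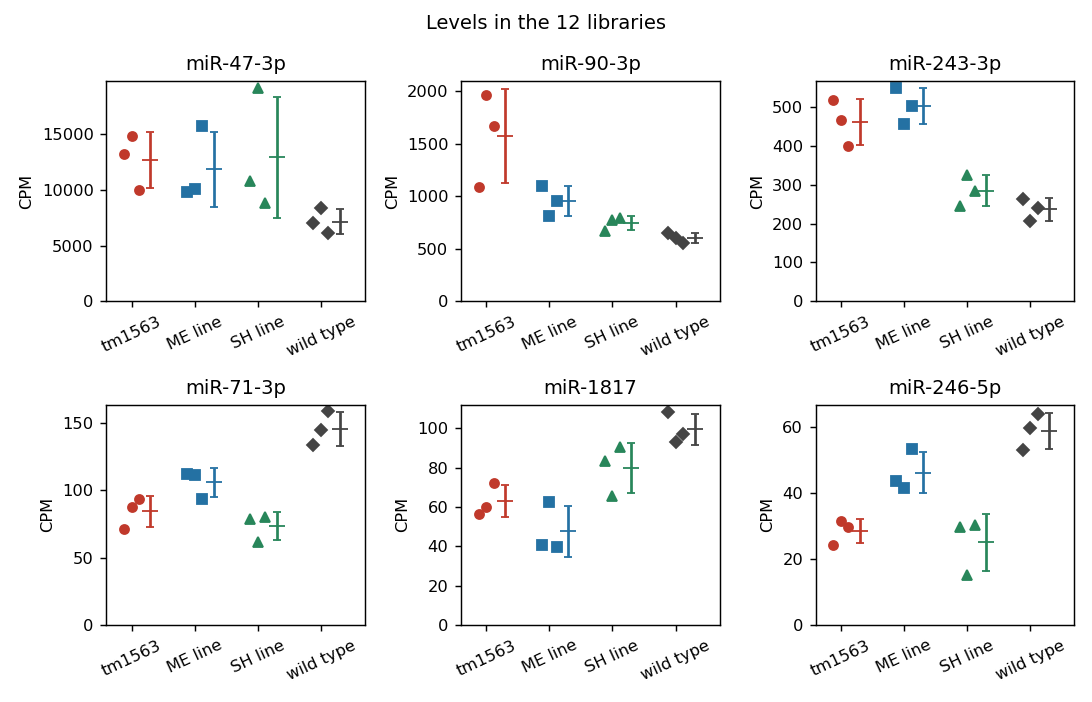
CPM of 6 called miRNAs in tm1563, the ME line, the SH line and wild type on linear axes that start at 0. Points are libraries, and the dash with its bar is the mean ± SD of the 3 libraries. All 9 mutant points lie above wild type for miR-47-3p and below it for miR-71-3p, miR-243-3p stands at 285 CPM in the SH line against 236 CPM in wild type, and miR-246-5p is nearest wild type in the ME line.

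Complete separation of the 9 mutant from the 3 wild-type libraries was seen for 9 features, 3.6% of those tested, 4 above and 5 below wild type. Of these 5 were called, namely miR-47-3p, miR-90-3p, miR-71-3p, miR-1817 and miR-39-5p. A further 3 with a miRBase name were not. miR-49-5p had 42.8 to 75.6 CPM in the mutant libraries and 15.4, 41.9 and 37.6 CPM in wild type (log2 fold change 0.78, edgeR adjusted p = 0.0516). miR-59-3p had 5479 to 9009 CPM in the mutant libraries and 11190, 9307 and 9551 CPM in wild type (log2 fold change -0.41, edgeR adjusted p = 0.0516). miR-5545-5p had 5.61 to 9.68 CPM in the mutant libraries and 5.53, 5.45 and 4.23 CPM in wild type (log2 fold change 0.43, edgeR adjusted p = 0.206). For miR-49-5p the gap to wild type was narrow apart from wild-type library 1, the lowest of the 12.

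Each line was also set against wild type on its own. Against wild type, 25 features passed in tm1563 (10% of those tested), 34 in the ME line (13.6%) and 5 in the SH line (2%). With 1 library left out these ran from 5 (without tm1563 library 1) to 32 in tm1563, from 10 (without ME line library 1) to 53 (without SH line library 2) in the ME line, and from 2 (without SH line library 2) to 8 (without SH line library 3) in the SH line. With all 12 libraries no more than 5 features could pass in every line, so a call in the mean is not a call in each line. Without the SH line, the mean of the other 2 lines gave 32 calls, and without the ME line it gave 20, of which 11 were among the 20 above. Without the tm1563 line edgeR called 0, with 54 features at an unadjusted p under 0.05. When the 9 mutant libraries were fitted as 1 group, so that differences among lines counted as spread, edgeR called 0 and 46 features had an unadjusted p under 0.05.

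The contrast among the lines called 35 features that the mean did not. The smallest p belonged to miR-245-3p, at 101, 128 and 135 CPM in tm1563, 15.5, 18.8 and 22.3 CPM in the ME line and 60.9, 43.4 and 46.3 CPM in the SH line, against 32.0, 38.2 and 28.5 CPM in wild type. The tm1563 and SH line libraries were all above wild type and the ME line libraries all below. The log2 fold changes were 1.88, -0.80 and 0.61, and the mean of 0.56 missed the threshold (adjusted p = 0.0516).

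The neuronal miRNA miR-790-5p had the same order. It averaged 314 ± 17.5 CPM in tm1563, 55.9 ± 14.99 in the ME line and 160 ± 56.2 in the SH line, against 125 ± 39.5 in wild type (SD, n = 3 each). The log2 fold changes were 1.33 in tm1563 and -1.16 in the ME line, both called, and 0.36 in the SH line, with a mean of 0.18. miR-251 had 4.78, 8.13 and 10.97 CPM in tm1563, 0.993, 0.495 and 0.450 CPM in the ME line and 3.11, 3.99 and 3.53 CPM in the SH line, against 2.84, 2.39 and 1.95 CPM in wild type. Its log2 fold changes of 1.74 in tm1563 and -1.83 in the ME line gave a mean of 0.17. In the ME line miR-251 was close to the detection floor.

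For the other 5 the ME line stood farthest from wild type. miR-252-5p had 12.7 to 21.7 CPM in the ME line and 41.0 to 53.2 CPM in wild type, a log2 fold change of -1.53, against 0.37 in tm1563 and 0.25 in the SH line. miR-76-3p was at -1.29 in the ME line, 0.19 in tm1563 and -0.24 in the SH line. The minor arms miR-44-5p, miR-61-5p and miR-83-5p went the other way, at 1.89, 0.53 and 0.91 in the ME line. The ME line value passed the threshold against wild type for miR-252-5p, miR-76-3p, miR-44-5p and miR-83-5p and missed it for miR-61-5p (adjusted p = 0.0691).

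**Figure D3:**
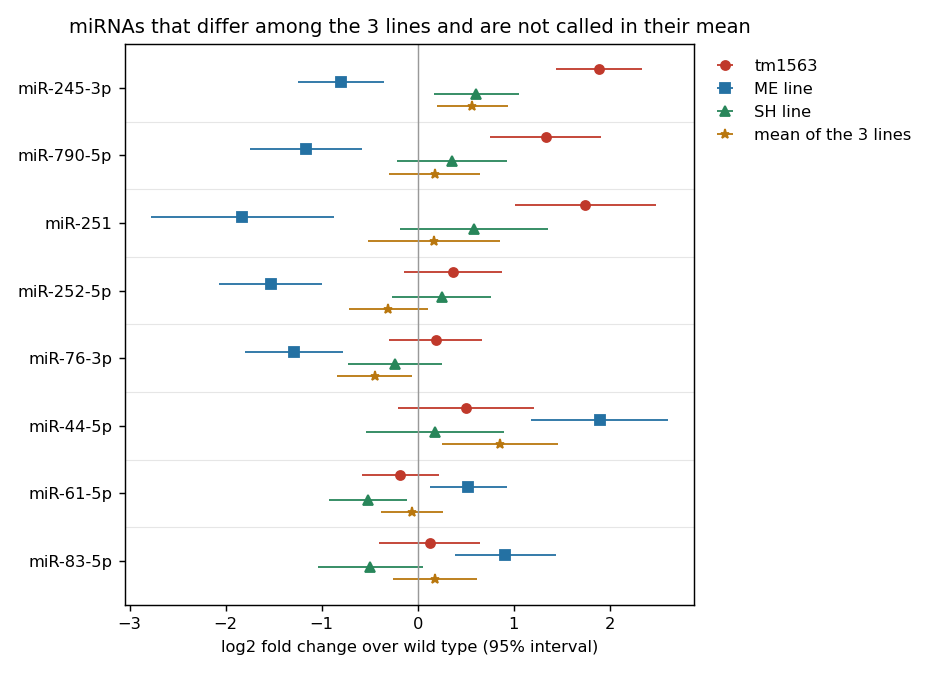
Log2 fold change over wild type, with 95% intervals from edgeR, of the 8 miRNAs with the smallest p for a difference among the lines that were not called in the mean. miR-245-3p, miR-790-5p and miR-251 lie to the right of 0 in tm1563 and to the left in the ME line, and their means lie between 0.17 and 0.56.

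Guides of developmental timing were not called in the mean. let-7-5p, which drives the larval-to-adult switch, had 5576 to 7347 CPM in the mutant libraries, with a median of 6159, and 6280, 5949 and 6712 CPM in wild type. Its log2 fold change of 0.02 (95% interval -0.23 to 0.27) turned to -0.03 with RLE size factors. lin-4-5p, which acts in earlier larval timing, was at 0.05 (95% interval -0.46 to 0.56). None of the 5 late larval guides was called by edgeR, none had an unadjusted p under 0.05, and their median was 0.02. They summed to between 53131 and 70507 CPM in mutant libraries, against 56232 to 60270 CPM in wild type. None of the 7 let-7 family guides was called in the mean by edgeR, and none had an unadjusted p under 0.05. However, 1 of the 7 was called as different among the lines.

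miR-1-3p, the muscle miRNA, was the most abundant feature, with 125350 to 242942 CPM in the mutant libraries, a median of 202739, and 282810, 196311 and 190026 CPM in wild type. The groups overlapped, and wild-type library 1 was the highest. The log2 fold change was -0.22 (95% interval -0.65 to 0.20, adjusted p = 0.571), and it was 0.06 without wild-type library 1 and ME line library 1. The other most abundant guides that were not called, miR-70-3p, miR-58a-3p and miR-44-3p, were at -0.09, -0.18 and -0.05, and each turned positive without those libraries. The sensory neuron miRNA miR-124-3p was low, at 1.31 to 4.13 CPM in the mutant libraries and 7.17, 2.77 and 0.98 CPM in wild type. The spread between wild-type libraries was too wide to resolve a change (log2 fold change -0.36, 95% interval -1.24 to 0.51). Without wild-type library 1 the log2 fold change of miR-124-3p was 0.53.

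The 4 neuronal markers miR-124-3p, miR-790-5p, miR-791-3p and lsy-6-3p summed to 300.2 to 337 CPM in tm1563, 48.3 to 77.2 CPM in the ME line and 125 to 231 CPM in the SH line, against 94.0 to 159 CPM in wild type. Most of each sum was miR-790-5p, whose levels are given above, so the sums mainly repeat its line differences. None of the 4 markers was called in the mean by edgeR or had an unadjusted p under 0.05. Among them 2 differed among the lines, miR-790-5p included. The glial marker miR-228-5p and the intestinal marker miR-60-3p had mean log2 fold changes of 0.12 and 0.19 and were not called. miR-246-3p, the gonad marker, was called lower. Whether the neuronal sum bears on the differences of other miRNAs among the lines was not tested. The mir-44 family (3 guides tested), the mir-64 family (4) and the mirtrons (3) had no member called by edgeR, with medians of -0.05, -0.03 and -0.12. Among them 1 mir-44 family guide had an unadjusted p under 0.05.

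Many of the called miRNAs were minor arms. Of 80 minor arms tested, 3 rose and 8 fell, 13.8% in all against 8% of all features tested, with a median log2 fold change of -0.05. Of 130 major arms, 6 rose and 2 fell, 6.15% in all, with a median of 0.06. Among 101 5p arms 5 rose and 4 fell (8.91%), and among 119 3p arms 4 rose and 6 fell (8.4%). Both shares were near the 8% of all features.

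The ratio of minor to major arm within a library, which needs no scaling between libraries, was tested for the 77 precursors with enough counts of the 152 with both arms listed. In the mean of the lines 10 passed (limma, adjusted p under 0.05), 13.0% of those tested, 5 with a higher and 5 with a lower ratio, and 22 had an unadjusted p under 0.05. Single libraries decided this count: it was 0 without wild-type library 3 (15 at an unadjusted p under 0.05), 3 without wild-type library 1 (mir-788, let-7 and mir-39), 4 without tm1563 library 1, and 5 without tm1563 library 2 or SH line library 2. Without the tm1563 line 1 precursor passed. The largest fall was that of mir-90, where the minor arm miR-90-5p was at a log2 ratio of -7.72 to -6.02 to miR-90-3p in the mutant libraries and at -5.40, -5.85 and -5.30 in wild type. The groups did not overlap, and the difference was -1.20 ± 0.31 on the log2 scale (SE, limma adjusted p = 0.0182). The minor arm miR-90-5p had a log2 fold change of -0.39 (edgeR adjusted p = 0.373), and the major arm miR-90-3p one of 0.79. The difference in ratio was -1.14 (limma adjusted p = 0.0717) without wild-type library 1.

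The ratios of mir-39, mir-238, mir-71 and mir-47 were also lower in the mutants. For mir-39 the log2 ratio was -6.68 to -5.49 in the mutant libraries and -5.29, -4.93 and -4.85 in wild type, a difference of -1.09 ± 0.26 (SE, limma adjusted p = 0.0157). For mir-238 it was -12.92 to -11.71 in the mutant libraries and -10.96, -11.58 and -11.05 in wild type, a difference of -1.01 ± 0.24 (SE, limma adjusted p = 0.0157). Neither overlapped wild type. The differences for mir-71 and mir-47 were -0.72 and -0.79 (limma adjusted p = 0.0297 for both). In mir-71 the log2 fold changes were -0.74 for the minor and -0.06 for the major arm, and in mir-47 they were -0.03 for miR-47-5p and 0.80 for miR-47-3p. Without wild-type library 1 the ratios of mir-238, mir-71 and mir-47 missed the threshold (limma adjusted p = 0.0585, 0.185 and 0.185).

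Higher ratios were found for mir-788, let-7, mir-49, mir-240 and mir-58a. The largest was mir-788, at -2.17 to 0.78 in the mutant libraries and -1.50, -2.37 and -2.73 in wild type, a difference of 1.57 ± 0.32 (SE, limma adjusted p = 0.00785). The SH line overlapped wild type. For let-7 the minor arm let-7-3p had 67.8, 74.8 and 44.8 CPM in tm1563, 231, 91.7 and 144 CPM in the ME line and 24.3, 62.2 and 24.7 CPM in the SH line, against 48.0, 25.9 and 13.9 CPM in wild type. Its ratio to let-7-5p was higher by 1.34 ± 0.35 on the log2 scale (SE, limma adjusted p = 0.0182), although let-7-3p did not itself pass in the mean (log2 fold change 1.29, edgeR adjusted p = 0.0820). The differences for mir-49, mir-240 and mir-58a were 1.00, 0.63 and 0.61 (limma adjusted p = 0.0233, 0.0303 and 0.0390). Without wild-type library 1 these 3 were 0.51, 0.61 and 0.49 and missed the threshold (limma adjusted p = 0.185, 0.0913 and 0.185).

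**Figure D4:**
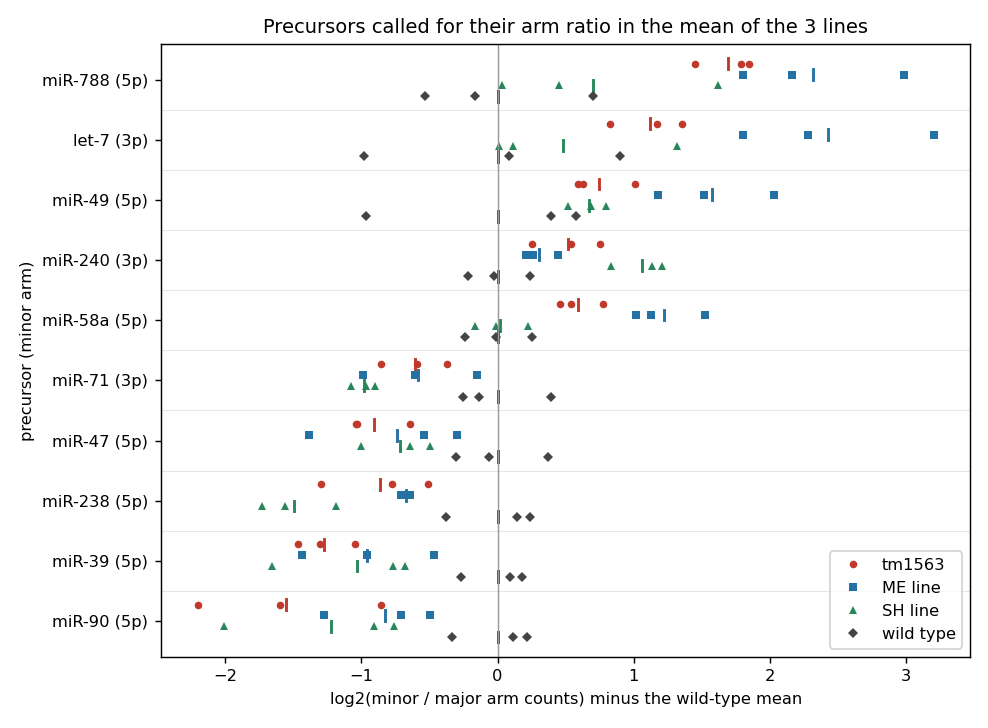
Log2 ratio of minor to major arm counts in each library, minus the mean of the 3 wild-type libraries, for the 10 precursors called by limma in the mean of the lines, with the minor arm in brackets. Ticks are line means. For mir-39, mir-238 and mir-90 all mutant libraries lie left of all wild-type libraries, while the ME line carries the highest values for mir-788, let-7, mir-49 and mir-58a.

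A shift common to all precursors did not pass its test. The median centred log2 ratio per library averaged -0.01 ± 0.20 in the mutant libraries (SD, n = 9) and 0.06 ± 0.04 in the wild-type libraries (SD, n = 3), a difference of -0.07 (exact permutation test over 220 assignments, two-sided p = 0.591, smallest possible 0.00909). The lines stood apart within the mutants: the median was 0.31, 0.18 and 0.25 in the ME line libraries, and below 0 in all tm1563 and SH line libraries. Without the ME line the difference was -0.19 (exact permutation p = 0.0238, the smallest possible with the libraries left). Without the SH line it was 0.003 (exact permutation p = 0.976).

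The called miRNAs lay on chromosomes I, II, III, IV and X and not on V (build WBcel235, Ensembl annotation). Arms are counted here, so mir-243 and mir-246 enter with both arms. All 20 matched an annotated gene. Of these 6 lay on chromosome X, against 74 of the 227 tested miRNAs that matched, and 10 lay within a protein-coding gene, against 96 of the 227. mbl-1 itself lies on X (X:16978608-17010302, + strand), and the nearest called miRNA gene, mir-1829b (X:14977119-14977178, + strand, in an intron of F20D1.3), is 2001.4 kb away. Called arms of neighbours within 10 kb did not all go the same way. mir-90 (III:8873987-8874084, - strand, in an intron of K01F9.2) and mir-238 (III:8867328-8867425, - strand, intergenic) are neighbours, and the major arm of mir-90 rose while the minor arm of mir-238 fell. mir-51 (IV:11026013-11026112, - strand) and mir-53 (IV:11027593-11027691, - strand) are also neighbours, both intergenic, and the minor arm miR-51-3p fell while the guide miR-53-5p rose. Both pairs thus set a minor arm against a guide, and the guides miR-238-3p and miR-51-5p were not called. The lowest log2 fold change of the 6 mir-51 family guides was 0.06. mir-39 (II:11538089-11538175, + strand) and mir-40 (II:11538184-11538275, + strand) overlap an intron of Y62F5A.9 on the opposite strand, and both minor arms fell.

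The authors' deposited tables compare each line with the same wild-type libraries and list only miRNAs past their threshold. In the authors' deposited tables miR-71-3p is listed for all lines, with log2 fold changes of -0.83 in tm1563, -0.52 in the ME line and -0.90 in the SH line. miR-1829b-3p is listed for all lines in the authors' deposited tables too, at -1.18, -0.99 and -1.11. Besides miR-71-3p and miR-1829b-3p, no miRNA called in the mean is listed there for all lines. miR-243-3p and miR-90-3p are listed there for tm1563 (0.87 and 1.25) and the ME line (0.98 and 0.57), and miR-246-5p for tm1563 (-1.09) and the SH line (-1.06). Listed for tm1563 alone are miR-47-3p (0.72), miR-53-5p (0.75) and miR-51-3p (-1.03). miR-243-5p is listed for the ME line alone (0.83) and miR-238-5p for the SH line alone (-1.22).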

How the data were processed

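The authors deposited whole-number read counts per mature miRNA arm for 12 small RNA libraries (inserts of 18 to 40 nt, reads of 50 nt, per the labels' protocols). Their comparison tables give log2 fold changes and adjusted p-values, per the file headers. Bowtie, DESeq2 and WBcel235 are named in the submitters' processing notes. The handling of multiply mapping reads is not given in the sources used here. The assignment of the codes ME and SH to count columns follows the likeness of names. Across listed features, log2 fold changes from the columns and the authors' tables correlated at r = 0.999 (tm1563), 0.9965 (ME) and 0.9935 (SH).

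Counts were filtered with filterByExpr (minimum count 10, minimum total 15), which left 250 features. The 0.0049% of counts in other features were not tested. edgeR 4.0.16 (R 4.3.3) fitted all 12 libraries with 1 mean per strain, TMM scaling and robust quasi-likelihood dispersions. The contrast was the mean of the 3 lines minus wild type, and p-values were adjusted over these 250 features (Benjamini-Hochberg, threshold 0.05). SE is the log2 fold change divided by the square root of F. Arm ratios, log2((minor + 0.5)/(major + 0.5)), were tested with limma 3.58.1 for minor arms with a mean of at least 10 counts. The minor arm is the one with the lower mean CPM. DESeq2 1.42.0, other scalings and filters, a replicate block and the omission of each library or line were alternatives. The scripts were tested on simulated data.

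Named miRNAs were all those called (up to 24), the 8 with the smallest p among those that differed among the lines without being called, their partner arms, a fixed set of guides, the 5 most abundant features, up to 10 precursors called for the arm ratio and features whose groups did not overlap. The members and lists were chosen with earlier results of these data known. No table of miRNA sequences was used here. 0 library columns were left unmapped.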

Additional observations from a re-analysis of the deposited data

Results flagged for a closer look

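Of the 20 miRNAs called in the mean of the lines, 9 also differed among the 3 mutant lines by edgeR's test of that difference. The adjusted p was 0.00523 for miR-90-3p, 0.00897 for miR-243-3p, 0.00948 for miR-246-3p, 0.0112 for miR-229-3p, 0.0170 for miR-788-5p, 0.0178 for miR-51-3p, 0.0229 for miR-230-3p, 0.0298 for miR-246-5p and 0.0427 for miR-1022-5p. Among miRNAs not called in the mean, the 8 with the smallest adjusted p for a difference among the lines were miR-245-3p at 1.482e-06, miR-790-5p and miR-251 at 9.342e-05 each, miR-252-5p at 0.000189, miR-76-3p at 0.00315, miR-44-5p and miR-61-5p at 0.00514 each and miR-83-5p at 0.00523.

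The total of tm1563 library 1, 10764528 counts, stood apart from those of the other 8 mutant libraries, with a gap to the nearest of 0.707 of the whole range (Dixon's criterion). This check was made on 40 measures, and chance alone sets off about 1 in 20.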

How the results depend on the processing

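All 20 called miRNAs kept their sign under the 23 alternatives, which reuse the same libraries. miR-71-3p, miR-243-3p and, likewise, miR-246-5p were called in 11 of 12 fits with 1 library left out (all but that without wild-type library 3), and miR-90-3p in 10. The other 16 were called in 2 (miR-1022-5p, miR-230-3p) to 9 (miR-1829b-3p, miR-238-5p) of them, miR-53-5p in 3 and miR-47-3p in 4. Over those fits the calls numbered 0 to 25 in the mean (0 to 10 higher, 0 to 17 lower), 5 to 32 in tm1563, 10 to 53 in the ME line, 2 to 8 in the SH line, 24 to 51 among the lines and 0 to 13 for arm ratios, and the median arm ratio difference ran from -0.12 to -0.04.

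Over the same fits the log2 fold change ran from -0.0677 to 0.0734 for let-7-5p, -0.10 to 0.34 for lin-4-5p, -0.35 to -0.02 for miR-1-3p, -0.28 to 0.15 for miR-71-5p, -0.85 to 0.53 for miR-124-3p, -0.26 to 0.23 for miR-70-3p, -0.29 to 0.0528 for miR-58a-3p and -0.20 to 0.12 for miR-44-3p.

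RLE size factors gave 18 falls, with let-7-5p at -0.0259. Library totals gave 6 calls in the mean, 0 of them lower, 15 in tm1563, 0 in the SH line and 24 among the lines, with miR-70-3p at 0.0453 and miR-44-3p at 0.0457. In that fit the features at an unadjusted p under 0.05 numbered 58 in the mean. Without the low-count filter let-7-5p was at -0.0358, and with predicted miRNAs removed at -0.0062. DESeq2 gave 35 calls (15 higher, 20 lower), 38 in tm1563 and 10 in the SH line, with let-7-5p at -0.0133.

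Without wild-type library 1 and ME line library 1, an alternative chosen after seeing the data, 14 were called in the mean, 11 of them among the 20. There were 5 rises in the mean, 14 calls in the ME line and 9 in the SH line, with miR-1-3p at 0.0575, miR-124-3p at 0.54, miR-70-3p at 0.16, miR-58a-3p at 0.0684 and miR-44-3p at 0.17. With the mutant libraries as 1 group there were 0 calls (0 higher, 0 lower).

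Without the tm1563 line there were 0 calls in the mean (0 higher, 0 lower) and 1 for arm ratios, with let-7-5p at -0.0058, lin-4-5p at -0.013 and miR-71-5p at 0.0404. Without the ME line let-7-5p was at -0.0392 and the median arm ratio difference was -0.19. Without the SH line there were 32 calls (17 higher), with miR-70-3p at 0.0224, miR-44-3p at 0.001 and the median arm ratio difference at 0.0034. The cause of these changes was not tested.

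With the replicate number as a block there were 9 calls in the mean (4 higher, 5 lower), 8 of them among the 20, and 16 in tm1563. The numbers did not pair the libraries: 3 of 18 same-number pairs correlated above 0.1 (median r 0.0165, against 0.0065 for other pairs). Depth limits miR-124-3p, miR-251 and the minor arms under 10 CPM.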
